A study of Arabidopsis thaliana with 12 samples.

Results

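The third leaf of mock-treated Arabidopsis seedlings was compared between 4 h and 1 h after transfer to the mock medium, so the comparison follows mRNA levels over time in plants that received solvent only. It uses 6 of the 12 arrays in the series, 3 at each time, and takes in every locus on the array: 21428 of the 21492 probe sets, the other 64 being AFFX control sets. Of these loci, 1990 (9.29%) passed the test at an adjusted p under 0.05, 781 of them higher at 4 h (3.64%) and 1209 lower (5.64%); the 3 arrays of one time did not overlap those of the other at 1969 of the called loci and at 28.9% of all loci. In the list of dawn and morning genes of the circadian clock 9 of 11 fell, by up to 7.31-fold, and in the evening list 7 of 10 rose, by up to 6.34-fold. Falls numbered 11 of 20 among light genes, with both early light-induced genes, and 12 of 18 in the flavonoid pathway, whereas 10 of 24 genes of starch metabolism, the 3 ferritins measured and 3 of 13 cold genes rose.

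The seedlings carried 35S::gai-GR, a DELLA growth repressor that resists gibberellin fused to the glucocorticoid receptor domain, driven by a constitutive viral promoter in the Col-0 ecotype. All groups share this transgene, an age label of 9DAS, MS medium, 16 h light and 8 h dark, and 21 °C. Mock plants were moved to medium with DMSO for 1 h or 4 h, and DEX plants to medium with 5 µM dexamethasone, which lets the fusion protein enter the nucleus. Leaf 3 of 128 plants was dissected, without a statement whether per sample, and the replicates came from separate experiments. The labels used here do not give the hour of harvest, so time since transfer and time of day cannot be told apart, and plants without the transgene are not analysed here.

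The circadian clock of plants is a loop of transcription factors that repress one another in turn over the day. CCA1 and LHY act around dawn and repress evening genes such as TOC1, GI and ELF4, and the PRR proteins in turn repress CCA1 and LHY. In leaves the clock and light together set the daily course of starch turnover, flavonoid synthesis, cold-regulated genes and the genes that time flowering.

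Values are log2 expression after RMA, so a difference of 1 is a 2-fold change. The standard error of a difference had a median of 0.12, and its n is 3 arrays a group throughout. The photosynthesis markers were in keeping with the leaf label: their median log2 level at 1 h was 13.38 over 20 measured genes, against 6.36 for 10 root markers and 6.22 for 10 shoot meristem markers. A value of 5.79, the lowest lower quartile of any array, is used below as a mark of nearness to background. GAI, the gene from which the transgene derives, was at 12.86 ± 0.05 (SD, n = 3) at 1 h and 12.94 ± 0.04 at 4 h, a difference of 0.08 with an adjusted p of 0.576 by limma. These values do not tell the native gene from the transgene.

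Control sets on the arrays differed between the times too, which limits every result below. The hybridisation spike-in BioB was at 8.42 to 8.46 in mock arrays at 1 h and at 5.83 to 6.61 at 4 h, and it was lower at 4 h in DEX arrays by 1.77 as well (exact permutation test over all splits of the 12 arrays into 6 and 6, two-sided, p = 0.00216, the smallest it can give, adjusted over 12 measures 0.013). Cre moved the other way, by 0.14 in mock and 0.33 in DEX (exact permutation test on all 12 arrays, adjusted p 0.0156). BioC, at a difference of -0.02, and BioD, at 0.18, overlapped between the mock groups. In mock arrays the signal of the 3′ end of actin exceeded that of its 5′ end by 3.08 ± 0.08 (SD, n = 3) at 1 h and by 4.02 ± 0.15 at 4 h. In DEX arrays this gap widened by 0.83, and the exact permutation test on all 12 arrays gave an adjusted p of 0.013. The same gap widened in mock by 0.36 for GAPDH and 0.38 for ubiquitin. Affymetrix arrays use this gap to gauge how complete the labelled RNA is. Poly-A spike-ins overlapped between the times, with mock 4 h replicate 1 lowest in each of the 4 sets (Dap at 7.02 against 8.87 and 9.33). Time and these differences in RNA and hybridisation cannot be told apart.

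Mock 4 h replicate 2 stood apart from the other mock arrays, with a median of 7.48 against 7.66 to 7.76, and the counts depend on it. Without it 1464 loci rose (6.83%) and 975 fell (4.55%), so the share of calls that were rises went from 39.2% to 60.0%. Renewed quantile normalization gave 49.8% rises, array weights 51.3%, and centring combined with leaving that array out 32.3%, so the balance of rises and falls is not settled. Leaving out mock 4 h replicate 1 or 3 gave 32.0% and 31.3% rises. Leaving out a mock 1 h array, each of which lies close to the other 2, reduced the calls to 1013 without replicate 1, 968 without replicate 2 and 945 without replicate 3. A core of 1347 loci, 618 rises and 729 falls, was called the same way on the values as deposited, after quantile normalization, after centring, without mock 4 h replicate 2, and with both of the last changes. Leaving out a mock 1 h array was not among these settings and kept 936 to 987 of the main calls. When arrays were set equal on the 4 spike-ins, BioB included, 0.64 was added to every log2 difference and the median of all loci became 0.60 in place of -0.04. Every fall smaller than 0.64 therefore has a direction that depends on this choice, and the directions below are relative to the bulk of loci. With BioB included, 14933 of the 21428 loci were called rises and 37 falls. Light genes then had 6 falls and 8 rises (median 0.15), and flavonoid genes 3 falls and 2 rises (median -0.16). Wall-loosening genes had 0 falls and 6 rises, photosynthesis genes 0 and 11, starch genes 0 and 20, and cold genes 0 and 12. The same scaling without BioB, tried after the data were seen, left 325 calls, 112 rises and 213 falls. These included 8 falls in the dawn clock list, 5 rises in the evening list, 8 falls among light genes and 11 among flavonoid genes. In starch metabolism 4 genes rose, in the cold list 1 and in the iron list 0.

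At 2-fold or more, 79 loci rose (0.369%) and 56 fell (0.261%). The largest rise was at AT1G56300, a protein-coding locus without a symbol in the reference, which read 6.74, 6.88 and 6.78 at 1 h and 11.13, 10.71 and 11.11 at 4 h. That is an 18.1-fold increase (log2 4.18, SE 0.11, limma adjusted p 7.15e-11), with every 4 h array more than any 1 h array. AT2G33830, listed in the reference as DRM2 (dormancy associated gene 2), was at 6.51, 6.24 and 6.74 at 1 h and at 10.04, 10.36 and 10.33 at 4 h, a 13.4-fold rise (adjusted p 1.35e-09).

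**Figure D1:**
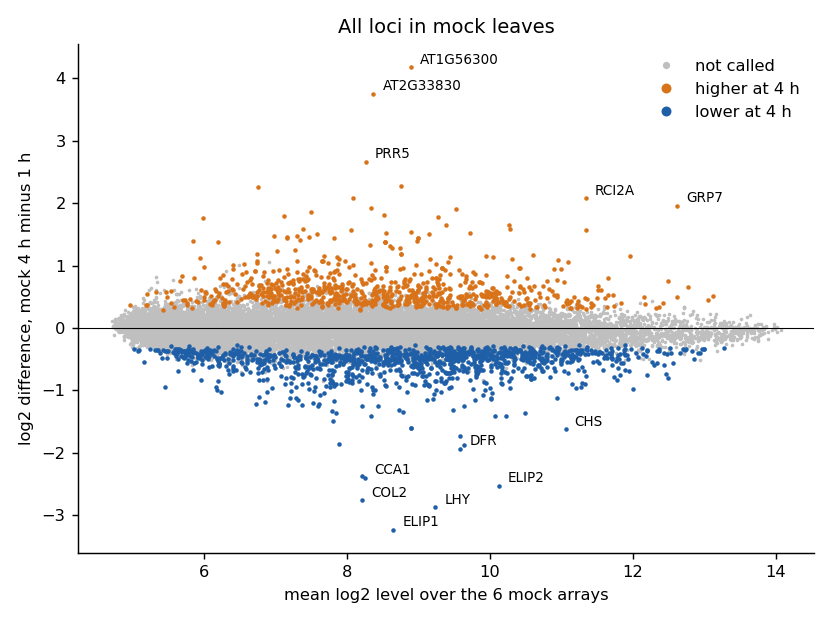
Each point is 1 of the 21428 loci, with the mean log2 level over the 6 mock arrays on the x axis and the log2 difference of 4 h minus 1 h on the y axis; coloured points passed the test, 781 higher and 1209 lower at 4 h. AT1G56300 and AT2G33830 lie highest, at 4.18 and 3.75, and ELIP1 and LHY lowest, at -3.23 and -2.87.

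Further loci among the 15 largest rises included COR15B and RCI2A. COR15B, a chloroplast protein that stabilises membranes in the cold, rose from 7.48, 7.71 and 7.67 to 9.93, 9.18 and 10.56, or 4.82-fold (adjusted p 0.00106), with mock 4 h replicate 2 the lowest of the 4 h arrays. RCI2A, a small hydrophobic membrane protein of cold and salt responses, rose 4.22-fold from 10.32, 10.27 and 10.31 to 12.45, 12.28 and 12.40 (adjusted p 5.9e-07). GRP7, a glycine-rich RNA-binding protein under clock control, was already high at 11.66, 11.62 and 11.65 and rose 3.90-fold to 13.66, 13.47 and 13.69. None of these genes' groups overlapped. TAG1, an acyltransferase that makes storage lipid, rose 3.79-fold (adjusted p 3.33e-08), and IGMT5, a methyltransferase of the indole glucosinolate family, 3.74-fold (adjusted p 2.84e-05). RbcX1, a chaperone of Rubisco assembly, was near background at 1 h (5.60 to 5.62) and rose to between 7.52 and 8.31, a log2 difference of 2.27 (adjusted p 3.53e-06). The remaining leading rises, AT4G16146, AT4G32340, AT4G34950, AT2G39920 and AT2G21130, carry no symbol and ranged from 1.78 to 2.09 on the log2 scale.

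**Figure D2:**
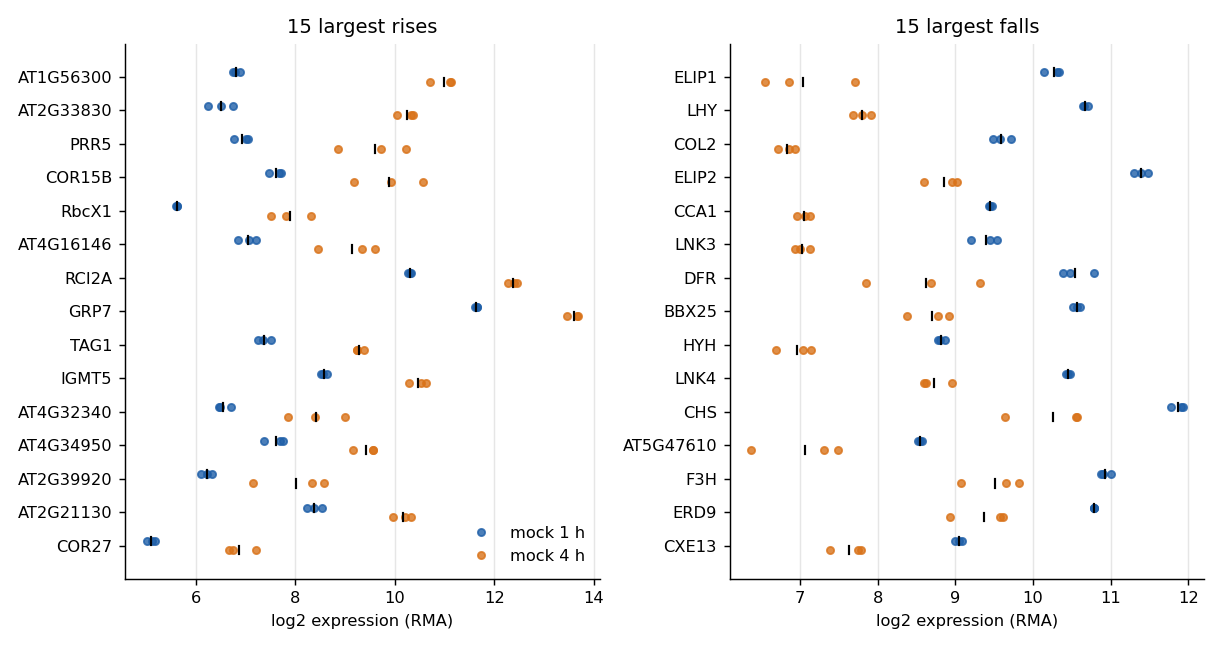
Log2 expression on each mock array for the 15 loci with the largest rises (left) and the 15 with the largest falls (right) among those that passed, stand for exactly 1 gene and have groups without overlap; blue points are 1 h, orange points 4 h, and the black ticks are group means of 3 arrays. The 1 h arrays lie close together in most loci, and the 4 h arrays spread more, for example from 6.55 to 7.70 for ELIP1.

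Among the clock genes, 9 of the 11 measured dawn and morning members fell, 1 rose and 1 did not pass. The list's median was -1.15, against -0.04 over all loci. Counts here and in the lists below stand beside 3.64% rises and 5.64% falls over all loci in mock. LHY read 10.71, 10.64 and 10.65 at 1 h and 7.91, 7.80 and 7.68 at 4 h, a 7.31-fold fall (log2 -2.87, SE 0.11, adjusted p 1.35e-09). Its partner CCA1 read 9.47, 9.43 and 9.44 at 1 h and 7.13, 6.96 and 7.06 at 4 h, a 5.28-fold fall (log2 -2.40, SE 0.11, adjusted p 2.98e-08). Both genes were tightly grouped at each time and far apart between times.

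LNK proteins, coactivators that work with the RVE factors, fell in all 4 cases: LNK3 by 2.37, LNK4 by 1.73, LNK2 by 1.15 and LNK1 by 0.70 on the log2 scale (adjusted p from 3.17e-08 to 0.00242). Of the RVE factors, MYB-like relatives of CCA1, RVE1 fell by 1.21, RVE4 by 1.05 and RVE8 by 0.94 (adjusted p 0.000164, 0.000179 and 0.000157). RVE8 was close to the background mark at both times, at 5.83 to 5.98 and then 4.86 to 5.06, so the size of its fall is uncertain. RVE2 did not pass, at -0.28 (adjusted p 0.195). The list member that rose was PRR7, a repressor of CCA1 and LHY whose phase follows theirs, from 8.98, 9.03 and 8.87 to 9.69, 9.39 and 9.72 (log2 0.64, adjusted p 0.00367).

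Of the 10 measured members of the evening list 7 rose, 0 fell and 3 did not pass, and the median was 1.06. PRR5, a repressor of the next turn of the loop, read 6.76, 7.04 and 7.01 at 1 h and 9.72, 8.85 and 10.23 at 4 h, a 6.34-fold rise (log2 2.67, SE 0.28, adjusted p 6.73e-05). Its 4 h arrays spanned more than 1 unit, yet the lowest of them stood well above the highest 1 h array. COR27, a nuclear regulator of the clock and of cold responses, rose by 1.77 from near background (5.01 to 5.17) to between 6.67 and 7.20 (adjusted p 7.39e-06). GI, a large protein that stabilises the F-box protein ZTL, read 8.13, 8.20 and 8.51 at 1 h and 9.75, 9.54 and 9.71 at 4 h, a 2.62-fold rise (adjusted p 6.01e-06).

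The evening complex, a repressor made of ELF3, ELF4 and LUX, was represented by ELF4, which rose by 1.48 (adjusted p 0.000288), and ELF3, which rose by 0.68 (adjusted p 0.0131). ELF3 lost its call without mock 1 h replicate 2 (adjusted p 0.0549) or replicate 3 (0.0502). PRR3, which protects TOC1 from breakdown, rose by 1.47 (adjusted p 6.73e-05), and TOC1 itself, a repressor of the dawn genes, by 0.73, from 8.44, 8.32 and 8.16 to 9.24, 8.66 and 9.22 (adjusted p 0.00497). The members that did not pass were the F-box photoreceptors ZTL (-0.33, adjusted p 0.149) and LKP2 (0.02, adjusted p 0.934) and the clock regulator TIC (-0.04, adjusted p 0.856). Under the spike-in scaling with BioB these 2 lists counted 6 falls among the dawn genes and 9 rises among the evening genes. That scaling adds 0.64 to every difference and called 14933 of all 21428 loci rises and 37 falls. The 9 evening rises are therefore to be read beside that share.

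**Figure D3:**
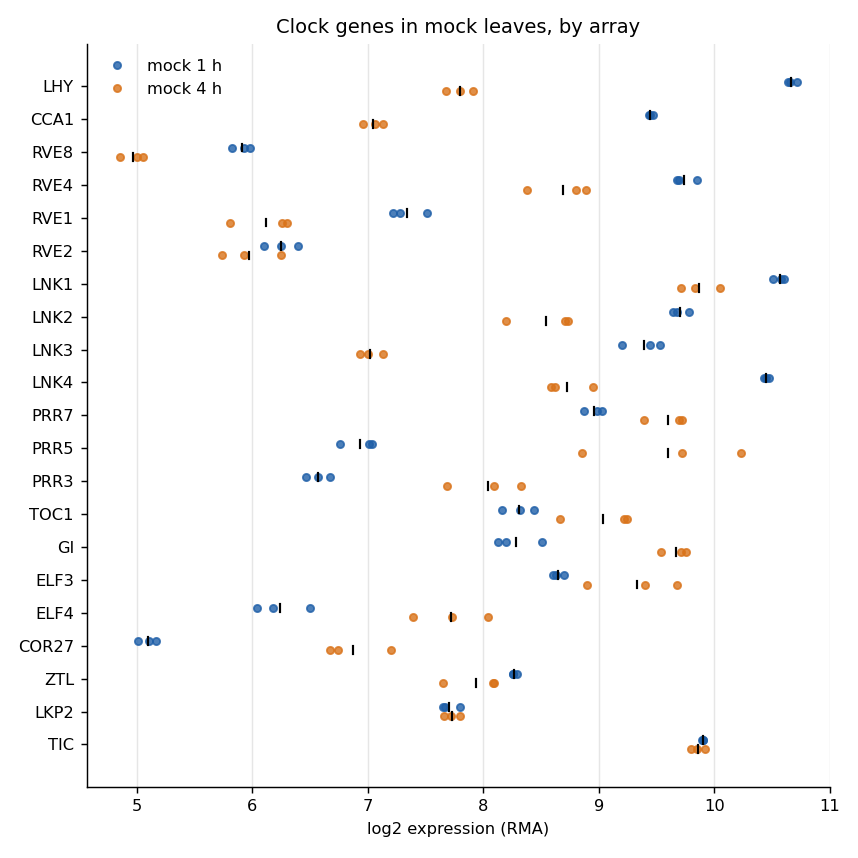
Log2 expression of the 21 measured clock genes on each mock array, with 1 h in blue, 4 h in orange and black ticks at the group means. Dawn genes from LHY to LNK4 lie to the left at 4 h, except that the groups of RVE2 overlap (-0.28, not called). Genes from PRR7 to COR27 lie to the right, and ZTL, LKP2 and TIC shift by 0.33 or less.

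Clock outputs and genes that time flowering moved in both directions, with 8 falls and 2 rises among 13 and a median of -0.47. COL2, a B-box relative of CONSTANS, read 9.72, 9.48 and 9.58 at 1 h and 6.93, 6.72 and 6.85 at 4 h, a 6.77-fold fall without overlap (adjusted p 7.41e-10). Its neighbour in the family, COL1, fell by 1.36 (adjusted p 1.39e-05), and the DOF repressors of flowering CDF3, CDF2 and CDF1 fell by 1.24, 1.02 and 0.73 (adjusted p 0.000857, 0.000215 and 0.000732). CONSTANS (CO) fell by 0.39 (adjusted p 0.0403), and FT, the mobile flowering signal, did not pass at -0.26 (adjusted p 0.112). The 2 rises were GRP7 and its close relative GRP8, which rose by 1.16 from 11.40, 11.40 and 11.34 to 12.56, 12.47 and 12.59 (adjusted p 5.26e-06).

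Of 20 measured genes of light signalling and light protection, 11 fell and 1 rose, with a median of -0.49. ELIP1, an early light-induced protein that binds chlorophyll under light stress, had the largest fall of any locus. It read 10.34, 10.31 and 10.14 at 1 h and 6.85, 6.55 and 7.70 at 4 h, a 9.38-fold fall (log2 -3.23, SE 0.25, adjusted p 2.77e-06). Its paralogue ELIP2 fell 5.79-fold, from 11.48, 11.39 and 11.30 to 9.02, 8.59 and 8.96 (adjusted p 1.38e-07). In both genes all 4 h arrays stood far under all 1 h arrays.

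The bZIP factors that promote responses to light fell as well, HYH by 1.86 from 8.86, 8.80 and 8.78 to 7.14, 6.69 and 7.03 (adjusted p 1.1e-06) and HY5 by 0.90 from 7.64, 8.01 and 7.79 to 6.96, 6.80 and 6.97 (adjusted p 0.000325). The B-box proteins that tune HY5 activity fell unevenly: BBX25 by 1.87, BBX18 by 1.30, BBX19 by 1.24 and BBX31 by 0.76, while BBX22 (0.35, adjusted p 0.175) and BBX20 (0.44, adjusted p 0.0658) did not pass. Of the photoreceptors, PHYA, phytochrome A, rose by 0.36 (adjusted p 0.0402), a call that did not survive leaving out any single mock array (adjusted p 0.0574 to 0.143), and PHYB, CRY1 and CRY2 differed by -0.12, -0.13 and -0.02 without passing. COP1 and SPA1, parts of the ubiquitin ligase that degrades HY5, did not pass either, at -0.07 and -0.11.

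The flavonoid pathway fell in mock leaves at 12 of its 18 measured genes, with 0 rises and a median of -0.81; without mock 4 h replicate 2 the counts were 12 falls and 1 rise with a median of -0.62. CHS, chalcone synthase, which opens the pathway, read 11.93, 11.90 and 11.78 at 1 h and 10.55, 9.64 and 10.57 at 4 h, a 3.07-fold fall (adjusted p 0.000174). DFR, dihydroflavonol reductase of the anthocyanin branch, read 10.78, 10.47 and 10.39 at 1 h and 8.68, 7.85 and 9.32 at 4 h, a 3.81-fold fall (log2 -1.93, SE 0.29, adjusted p 0.0011). Replicate 2 was the lowest 4 h array for both, and neither gene's groups overlapped.

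Upstream, PAL1 and C4H of the general phenylpropanoid pathway fell by 1.00 and 0.76 (adjusted p 0.000629 and 0.00136). Along the main chain F3H, flavanone 3-hydroxylase, fell by 1.42, TT7, flavonoid 3′-hydroxylase, by 0.97, and FLS1, flavonol synthase, by 1.14 (adjusted p 0.000172, 0.0028 and 0.00208). UGT78D2, a glucosyltransferase of flavonols and anthocyanins, fell by 0.98 (adjusted p 0.00586). The locus AT4G14090, which has no symbol in the reference and was not counted in the list, fell by 1.34 (adjusted p 0.000629). Of the MYB regulators of the pathway PAP2 fell by 0.73 (adjusted p 0.0137), and PAP1, at -0.85 (adjusted p 0.0511), MYB12, at -0.20 (adjusted p 0.444), and MYB111, at 0.35 (adjusted p 0.0865), did not pass.

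The same interval in dexamethasone-treated leaves, on 6 arrays that the mock comparison does not use, gave 2236 rises (10.4%) and 1924 falls (8.98%). Of the 781 mock rises 611 were also called rises in DEX, 78.2% of the mock rises and 27.3% of the DEX rises, and 1 was called a fall. Of the 1209 mock falls 652 were also called falls in DEX, 53.9% of the mock falls and 33.9% of the DEX falls, and 27 were called rises. The 2 comparisons share no array, but they share the control-set differences between times and 1 estimate of the spread. In DEX leaves LHY fell by 2.72, CCA1 by 2.21 and COL2 by 2.42, and PRR5, AT1G56300 and GRP7 rose by 3.5, 4.71 and 1.88, all with adjusted p of 2.25e-06 or less.

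The change over time was then set against that in DEX by a test of the difference itself, which 274 loci passed (1.28%): 207 had a higher time change in DEX (0.966%) and 67 a lower one (0.313%). This balance depends on the scaling, with 229 higher and 170 lower after quantile normalization, 183 and 134 after centring, and 41 and 43 under spike-in scaling. Without mock 4 h replicate 2 the counts were 241 and 171. In the flavonoid list 11 of 18 genes passed on the higher side and 0 on the lower, with a median difference of 1.29. DFR fell by 1.93 in mock and rose by 1.49 in DEX, a difference of 3.42 (adjusted p 0.000655). PAL1 fell by 1.00 in mock and rose by 1.51 in DEX (difference 2.51, adjusted p 2.09e-05), and TT7 fell by 0.97 and rose by 1.67 (difference 2.64, adjusted p 7.41e-05). CHS fell by 1.62 in mock and had a DEX value of 0.00 that did not pass (difference 1.61, adjusted p 0.00804). These differences use the mock arrays that also gave the mock falls, so they are not separate evidence for those falls.

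**Figure D4:**
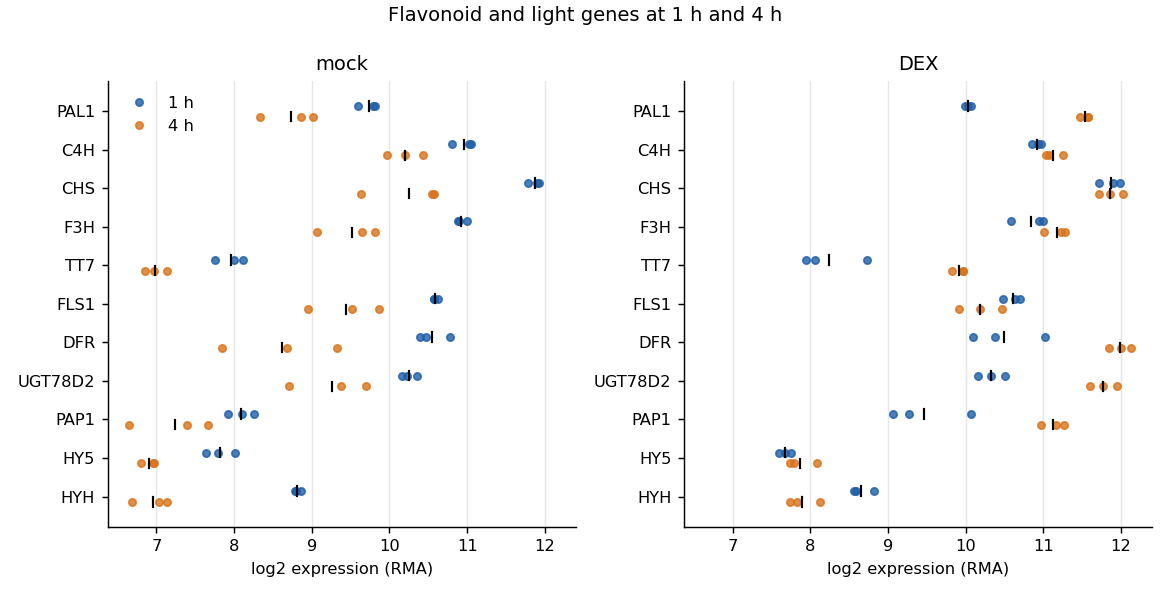
Log2 expression of 9 flavonoid genes and the light factors HY5 and HYH on each array at 1 h (blue) and 4 h (orange), in mock (left) and DEX (right), with black ticks at the means of 3 arrays. DFR goes from 10.39 or more to 9.32 or less in mock, and its time change is 3.42 higher in DEX.

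Neither clock list held a gene with a called difference between DEX and mock by limma, with 2 of the dawn genes and 2 of the evening genes at an unadjusted p under 0.05, while 3 light genes did: HY5 (difference 1.1, adjusted p 0.00351), HYH (1.1, adjusted p 0.00749) and BBX20 (0.92, adjusted p 0.0338). Time changes that were lower in DEX included KLU, a cytochrome P450 that promotes organ growth, with 0.39 in mock (adjusted p 0.245) and -1.39 in DEX, and the meristem homeobox gene KNAT1, which rose by 0.72 in mock and fell by 0.63 in DEX. GA20OX3, a gibberellin biosynthesis gene, was listed near background in mock at both times (5.43 to 5.75) and rose by 2.94 in DEX.

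Genes of starch metabolism rose more often than they fell, 10 against 2 of 24, with a median of 0.35. ISA3, a debranching enzyme of starch breakdown, read 8.43, 8.37 and 8.38 at 1 h and 9.97, 9.64 and 10.08 at 4 h, a 2.84-fold rise (adjusted p 1.36e-05). SEX1 and PWD, the dikinases that phosphorylate starch before it is broken down, rose by 0.90 and 1.16 (adjusted p 0.00305 and 1.8e-05). PHS1 and PHS2, phosphorylases, rose by 0.76 and 1.11, and DPE1 and DPE2, which handle short glucans and maltose, by 0.93 and 0.58. SS4 and SBE2.1, which build starch, rose by 0.79 and 0.49.

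The 2 falls of the list were GBSS1, the granule-bound synthase that makes amylose and a clock-regulated gene, and BAM9, a member of the beta-amylase family. GBSS1 read 10.35, 10.59 and 10.37 at 1 h and 9.47, 9.41 and 9.44 at 4 h, a 1.99-fold fall (adjusted p 7.21e-05). BAM9 read 9.51, 9.36 and 9.32 at 1 h and 8.46, 8.75 and 8.26 at 4 h, a 1.88-fold fall (adjusted p 0.000532). BAM3, the main beta-amylase of leaves, did not pass, at 0.44 (adjusted p 0.105).

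Of 18 genes induced by low sugar, 5 rose and 0 fell (median 0.30), where 3.64% of all loci rose; under the spike-in scaling without BioB 2 rose. DIN10, a dark-inducible raffinose synthase-like gene, read 10.56, 10.50 and 10.63 at 1 h and 11.58, 11.96 and 11.34 at 4 h, a 2.09-fold rise (adjusted p 0.00172), and GDH2, a glutamate dehydrogenase, rose by 0.80 (adjusted p 0.00145). DRM1, a dormancy-associated gene, rose by 1.03 (adjusted p 0.00931, and 0.0511 without mock 1 h replicate 2). The transcription factor BZIP1 rose by 0.49 (adjusted p 0.0223), a call lost without mock 1 h replicate 1 (0.0874), mock 1 h replicate 3 (0.1) or mock 4 h replicate 1 (0.0562). The locus of BZIP1 does not count as standing for exactly 1 gene, so its signal may not be that of BZIP1 alone. TPS10, of the trehalose-phosphate synthase family, rose by 0.46 (adjusted p 0.039), lost without any 1 of the mock arrays (0.0544 to 0.156). ASN1, an asparagine synthetase that is often used as a marker of low sugar, was at 0.08 (adjusted p 0.832).

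In the cold list 3 of 13 genes rose and 0 fell, with a median of 0.55; without mock 4 h replicate 2 the count was 5 rises. Beside COR15B, COR413-PM1, a membrane protein of cold acclimation, rose by 0.67 (adjusted p 0.00589). CBF1, a master regulator of the cold response, rose by 0.77 (adjusted p 0.0327), a call lost without mock 1 h replicate 2 (0.0893), mock 1 h replicate 3 (0.148), mock 4 h replicate 1 (0.0582) or mock 4 h replicate 3 (0.0731). Its neighbours CBF2 and CBF3 were at 0.55 and 0.76 without passing (adjusted p 0.172 and 0.0588), as was COR15A, the paralogue of COR15B, at 0.63 (adjusted p 0.261).

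All 3 ferritins measured, the plastid iron stores, rose. FER1 read 11.90, 12.27 and 12.15 at 1 h and 13.03, 12.66 and 12.91 at 4 h (log2 0.76, adjusted p 0.00245), FER3 rose by 0.80 (adjusted p 0.000181) and FER4 by 0.47 (adjusted p 0.0074). The other 4 iron genes, among them the iron-deficiency regulators BTS and PYE, did not pass, and the list's median was 0.10. Of 13 nitrate and sulfate genes 1 rose and 2 fell, with a median of 0.03, where 3.64% of all loci rose and 5.64% fell. These counts are too small to set apart from the shares. NIA1, nitrate reductase, rose by 0.61 (adjusted p 0.00301). APR2, a sulfate reductase, fell by 0.72 (adjusted p 0.0166; 0.0708 and 0.0603 without mock 1 h replicate 1 or 2), and the nitrogen-responsive repressor LBD37 fell by 0.52 (adjusted p 0.0214; 0.0634 and 0.0935 without the same arrays).

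DNA replication genes fell at 9 of 18 in mock leaves, where 5.64% of all loci fell, with 0 rises and a median of -0.32. Every member lay between -0.84 and -0.05. FAS2, a chromatin assembly factor subunit, read 8.92, 9.00 and 8.87 at 1 h and 8.28, 7.90 and 8.10 at 4 h, a 1.79-fold fall (adjusted p 0.000457). TSO2, the small subunit of ribonucleotide reductase, fell by 0.55 from 12.82, 12.87 and 12.84 to 12.34, 12.25 and 12.27 (adjusted p 0.00103). ORC2 of the origin recognition complex, MCM3 of the replicative helicase and CYCA3;1, a cyclin of the G1-S transition, fell by 0.54, 0.52 and 0.50 (adjusted p 0.0103, 0.00995 and 0.00844). Under the spike-in scaling with BioB these 18 genes counted 3 rises and 0 falls, and without BioB 0 rises and 1 fall. With BioB 14933 of all 21428 loci were called rises and 37 falls, and without it 112 and 213.

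In DEX leaves 17 of the 18 replication genes fell, where 8.98% of all loci did, with a median of -0.87. On the lower side of the test of the difference 3 passed, where 0.313% of all loci did. They were CYCA3;1 (-0.72, adjusted p 0.0261), PCNA1, the polymerase clamp (-0.62, adjusted p 0.0347), and CDT1A, a licensing factor (-0.72, adjusted p 0.035). Of 19 mitotic genes 3 rose in mock, where 3.64% of all loci did, 0 fell and the median was 0.25. The difference from the replication list was not tested. HIK, a kinesin of the phragmoplast, rose by 0.51 (adjusted p 0.00624). AUR2, an Aurora kinase, rose by 0.39 (adjusted p 0.0264) and PLE, a microtubule bundler, by 0.38 (adjusted p 0.036), and both calls were lost without mock 1 h replicate 2 or 3 or mock 4 h replicate 1 or 3 (adjusted p 0.0501 to 0.119), that of PLE without mock 1 h replicate 1 too (0.153). The mitotic cyclins CYCB1;1 and CYCB1;3 were at 0.30 and 0.19 and did not pass. The list counted 7 rises without mock 4 h replicate 2, 9 after quantile normalization and 0 under the spike-in scaling without BioB.

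Of 19 wall-loosening genes 5 fell and 0 rose, with a median of -0.32, where 5.64% of all loci fell. The expansins EXPA1, EXPA10 and EXPA4, which loosen cell walls, fell by 0.90, 0.73 and 0.57, and the xyloglucan enzymes XTH24 and XTH7 by 0.90 and 0.85 (adjusted p from 0.000471 to 0.00451). EXPA1 read 9.43, 9.37 and 9.26 at 1 h and 8.73, 8.17 and 8.46 at 4 h, without overlap. Among 22 regulators of leaf growth and polarity, with a median of -0.14, 1 rose and 1 fell, near the 3.64% and 5.64% over all loci. GRF1 rose by 0.56 and GRF6 fell by 0.56 (adjusted p 0.0124 and 0.0205), both lost without mock 1 h replicate 2 (0.0661 and 0.0972).

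Of 20 photosynthesis genes 5 fell and 0 rose, with a median difference of -0.14, where 5.64% of all loci fell. After quantile normalization and after centring 3 of them fell, and 1 under the spike-in scaling without BioB. LHCB2.3, a light-harvesting protein, read 12.26, 12.11 and 12.18 at 1 h and 11.28, 11.46 and 11.32 at 4 h, a 1.78-fold fall (adjusted p 0.000653), and PSBO2 of the oxygen-evolving complex fell by 0.47 (adjusted p 0.00965). LHCB4.2, GAPB and LHCB4.3 fell by 0.40, 0.31 and 0.43 (adjusted p 0.0131, 0.0286 and 0.0494). The call of LHCB4.2 was lost without mock 1 h replicate 3 (0.0607), that of GAPB without any mock 1 h array or mock 4 h replicate 3 (0.078 to 0.1), and that of LHCB4.3 without any mock array but 4 h replicate 1 (0.0861 to 0.185).

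In chlorophyll synthesis PORB, a light-dependent protochlorophyllide reductase, rose from 12.47, 12.38 and 12.48 to 13.10, 13.15 and 13.04 (log2 0.66, adjusted p 0.00057). CAO, which makes chlorophyll b, fell by 0.67, GUN4, an activator of magnesium chelatase, by 0.56, and HEMA1, the reductase at the start of the pathway, by 0.49 (adjusted p 0.00136, 0.00541 and 0.00468). The list of 10 thus had 1 rise and 3 falls, with a median of -0.21, where 3.64% of all loci rose and 5.64% fell.

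The hormone lists are to be read beside the 3.64% of all loci that rose and the 5.64% that fell, and the counts in single lists are too small to set apart from these shares. Of 28 auxin genes 2 fell: IAA17, a repressor of auxin responses, from 8.29, 8.28 and 8.03 to 7.42, 6.72 and 7.35 (log2 -1.04, adjusted p 0.00638), and IAA16 by 0.49 (adjusted p 0.0356), a call lost without any mock 1 h array or mock 4 h replicate 2 (0.0611 to 0.139). Of 17 cytokinin genes ARR15, a response regulator, rose by 0.54 (adjusted p 0.00362) and CGA1, a GATA factor, fell by 0.50 (adjusted p 0.011, and 0.0589 without mock 1 h replicate 1). The 16 ethylene genes had 2 falls, EFE, the ethylene-forming enzyme, by 0.76 (adjusted p 0.000536) and ERF2 by 0.70 (adjusted p 0.00122), and 1 rise, HLS1, a regulator of the apical hook, by 0.63 (adjusted p 0.00634). Medians of these 3 lists were -0.14, 0.11 and -0.13.

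Of 25 gibberellin genes 3 fell and 1 rose, with a median of -0.01. RGL2, a DELLA gene, fell by 0.56 (adjusted p 0.00405). GID1B, a gibberellin receptor, fell by 0.69 (adjusted p 0.0295; lost without any mock 1 h array or mock 4 h replicate 2, 0.0636 to 0.11). The synthesis gene GA3OX2 fell by 0.53 (adjusted p 0.0398; lost without any mock array but 4 h replicate 3, 0.0515 to 0.165), and GA2, kaurene synthase, rose by 0.53 (adjusted p 0.00947; 0.0528 without mock 1 h replicate 1). With mock 4 h replicate 2 left out, this list counted 4 rises and 1 fall, and so did the cytokinin list.

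Among 8 brassinosteroid genes BRI1, the receptor kinase, rose by 0.37 (adjusted p 0.0198), a call lost without any mock array but 4 h replicate 2 (0.055 to 0.0832). Of 18 abscisic acid genes ABF3, a bZIP factor, fell by 0.53 (adjusted p 0.00489) and HB-12, a homeodomain factor, by 0.50 (adjusted p 0.0151; 0.0747 and 0.0503 without mock 1 h replicate 2 or 3). Of 14 heat shock genes HSFB2A fell by 0.64 (adjusted p 0.00166). The medians were -0.13, -0.11 and 0.01.

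Of 23 early touch and wound genes 2 rose, where 3.64% of all loci did: CML38, a calmodulin-like protein, by 0.79 (adjusted p 0.0211; 0.0627 and 0.0991 without mock 1 h replicate 1 or 3) and BAP1, a membrane-associated regulator of defence, by 0.70 (adjusted p 0.0191; 0.0925 without mock 1 h replicate 3), and the median was -0.04, that of all loci; the count is near the share over all loci. TCH3, a touch-induced calmodulin-like gene, was at 0.03, and ERF6, WRKY40 and ZAT10 did not pass. None of 15 jasmonate genes passed by limma, 3 of them having an unadjusted p under 0.05, nor did any of 10 salicylate defence genes, with 2; the jasmonate repressor JAZ9 was at -0.43 (adjusted p 0.0534) and PR5 at -0.48 (adjusted p 0.174). After quantile normalization, after centring and with a replicate block 1 jasmonate gene passed as a fall, and 1 salicylate gene did without mock 4 h replicate 2 and with the block.

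Markers of other tissues and reference genes complete the lists, and their small counts stand beside 3.64% rises and 5.64% falls over all loci. The 10 meristem markers had 1 rise, KNAT1 by 0.72 (adjusted p 0.00543), and 1 fall, CUC3, a boundary gene, by 0.36 (adjusted p 0.0464; lost without any mock array but 4 h replicate 3, 0.0861 to 0.148). Trichome genes had 2 falls of 11, the hair repressor TRY by 0.54 (adjusted p 0.00724) and ZFP8 by 0.55 (adjusted p 0.0172; 0.0573 and 0.0876 without mock 1 h replicate 1 or 3), and vascular genes 1 fall of 5, the phloem sucrose carrier SUC2 by 0.74 (adjusted p 0.00229). The marker lists had medians of -0.03, -0.34 and 0.09 and gave mean log2 levels per array of 6.43 to 6.47 at 1 h and 6.46 to 6.54 at 4 h for meristem, 8.38 to 8.66 and 8.05 to 8.34 for trichomes, and 6.18 to 6.28 and 6.13 to 6.30 for vasculature. Their part in the results was not tested, and in whole leaves fewer cells of a type and less RNA per cell cannot be told apart.

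No root gene of 10, stomatal gene of 11, ribosome biogenesis gene of 10 or reference gene of 7 passed by limma at the adjusted p used, with 1, 1, 0 and 1 of them under an unadjusted p of 0.05. The medians were -0.15, -0.04, -0.02 and -0.10. The reference genes ranged from -0.24 for PEX4 to -0.07 in mock, all on the lower side. In DEX leaves 3 of the 7 were called falls and 0 rises, with a median of -0.19, where 8.98% of all loci fell. They are therefore no neutral scale for the smaller called changes. Without mock 4 h replicate 2 1 ribosome biogenesis gene passed as a rise.

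**Figure D5:**
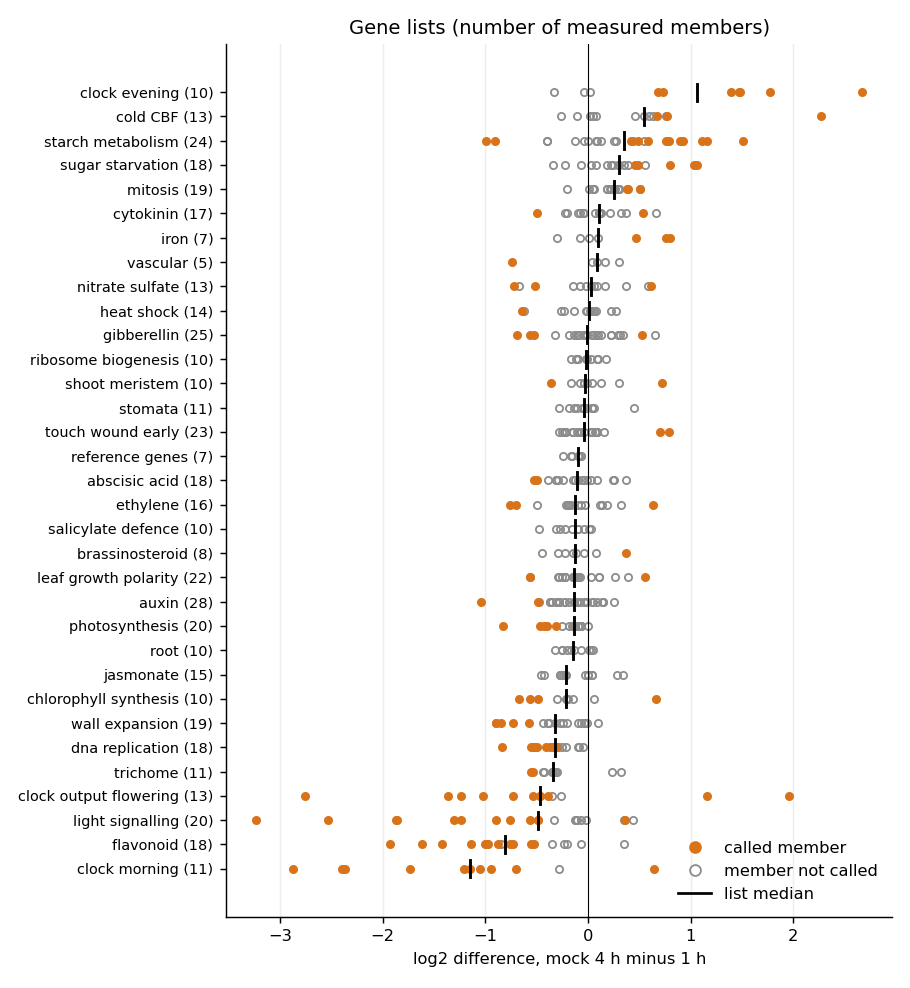
Log2 difference of mock 4 h minus 1 h for each measured member of the 33 gene lists, sorted by list median (black bar), with the number of measured members in parentheses; filled orange points passed the test and open grey points did not. Evening clock genes lie at the top with a median of 1.06, and flavonoid and dawn clock genes at the bottom with -0.81 and -1.15.

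The remaining leading falls lay outside the lists. ERD9, a glutathione transferase first named for its response to drying, was tightly grouped at 1 h (10.78, 10.78 and 10.79) and read 9.61, 8.93 and 9.57 at 4 h, a 2.66-fold fall (adjusted p 0.000109). CXE13, of the carboxylesterase family, fell by 1.41 (adjusted p 5.48e-06), and AT5G47610, without a symbol, by 1.49 (adjusted p 0.000749). Replicate 2 was the lowest 4 h array for all 3 loci, and no groups overlapped. DIR1, a lipid transfer protein of systemic defence signalling, fell by 0.96 (adjusted p 0.00253).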

How the data were processed

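RNA of leaf 3 was hybridised to 12 Affymetrix ATH1 arrays, and the authors deposited 1 log2 value per probe set and array. The submitters' processing notes name RMA as the method; its version and probe set definition are not given in the sources used here. RMA normalizes between arrays, which removes overall shifts between times. The values ran from 4.43 to 14.14, 0 pairs of arrays were identical and 0 columns belonged to other series. Arrays give no read depth, so their number limits the precision.

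Differences were tested with limma 3.58.1 in R 4.3.3 on all 12 arrays, with 1 mean for each of the 4 groups (degrees of freedom were 8 residual and 5.85 prior), two-sided, with no filter on level and Benjamini-Hochberg adjustment over 21428 loci; a locus was called at an adjusted p under 0.05. Adjusted p-values in the text come from this limma test unless named otherwise. The replicates are described as coming from separate experiments, and the p-values measure the spread between these samples only. Names come from the TAIR10.1 gene table, which names 21231 loci, 9006 by a symbol of their own; 21120 loci stand for exactly 1 gene and 221 share all values with another.

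The 33 gene lists hold 536 members, of which 526 bear the listed name in the reference and 493 of these were measured; a member without that name was left out. Members and lists were chosen with earlier results of these data known. Lists are described by counts and medians, with no test. Named were the 15 largest rises and falls among called loci of exactly 1 gene with groups that do not overlap, all measured clock genes, up to 5 called members of each other list by p (up to 2 in lists without any), the 5 largest differences between DEX and mock in each direction, and GAI. PHYA, BAM9, HY5, BBX18, BBX20, TT7, UGT78D2, FLS1, PAP1, SEX1 and PHS1 were added after their values were seen, as were list members given only by a difference or an adjusted p in passing.

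Control sets were compared by exact permutation tests. On simulated data of 21428 loci for mock 4 h against 1 h, 31 of 67 changes of log2 0.5, 65 of 67 of 1 and 66 of 66 of 2 were recovered, with 12 false among 174 calls. No other loci were changed, and the noise was normal and independent between arrays, without an outlying array or control-set differences. In the data 9.29% of loci were called, so these rates check the procedure and do not carry over to the data. Alternatives were a replicate block, only the mock arrays, a mean log2 of at least 6, quantile normalization, centring, spike-in scaling, weights per array, a robust variance trend, only loci that stand for 1 gene, stricter thresholds and leaving out each mock array; spike-in scaling without BioB was added after the data were seen. Promoter motifs were not analysed here, since no promoter sequences were at hand. Figures were drawn with matplotlib 3.10.9.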

Additional observations from a re-analysis of the deposited data

Results flagged for a closer look

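Of the 274 loci whose change over time differed between DEX and mock by the limma test of the difference, only the genes chosen for naming are given here. PCNA1 and CDT1A were given with the replication list. The values are the DEX change minus the mock change on the log2 scale. In the flavonoid pathway and its regulators these were DFR at 3.42, UF3GT at 2.85, AT4G14090 at 2.78, TT7 at 2.64, PAL1 at 2.51, PAP1 at 2.51, UGT78D2 at 2.43, F3H at 1.75, CHS at 1.61 and C4H at 0.96, all higher in DEX. UF3GT, a glycosyltransferase of anthocyanins, fell by 0.80 in mock (adjusted p 0.0305; lost without any mock 1 h array or mock 4 h replicate 2, 0.0531 to 0.111) and rose by 2.05 in DEX. The light factors HY5 and HYH both differed by 1.1, and BBX20 by 0.92. The flavonoid list members that passed but were not chosen for naming were MYBL2 at 2.01, TT8 at 1.80 and PAL2 at 0.82, also higher in DEX.

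Higher in DEX were also GA20OX3 at 2.95, the receptor-like kinase CRK12 at 2.79, AT4G16146 at 1.70 and GID1B at 1.14. CRK12 was at 5.84 to 5.93 on every mock array, and rose by 2.78 in DEX. Lower in DEX were KLU at -1.78, DIR1 at -1.50, LSH10 at -1.41, CGA1 at -1.37, KNAT1 at -1.34, LHCB2.3 at -1.13, HLS1 at -0.96 and CYCA3;1 at -0.72. LSH10, a member of the family of light-dependent short hypocotyl genes, was at 0.27 in mock (adjusted p 0.246) and fell by 1.14 in DEX. Members of other lists passed without being chosen for naming, among them RD29A at 1.92 on the higher side and GRF5 at -1.23 on the lower.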

How the results depend on the processing

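The 1990 calls (781 rises, 1209 falls) depended most on how arrays were set equal. Spike-in scaling gave 14970 (14933 and 37), and without BioB 325 (112 and 213). Only the 6 mock arrays gave 1086 (465 and 621), array weights 3120 (1602 and 1518), quantile normalization 1198 rises, centring without mock 4 h replicate 2 3219 (2178 falls), an adjusted p under 0.01 748 (338 and 410) and a 2-fold minimum 135 (79 and 56). Leaving out 1 mock array gave 945 to 2439 calls, 403 to 1464 rises and 541 to 1256 falls. For the difference between DEX and mock, 274 calls (207 higher, 67 lower in DEX), spike-in scaling gave 84 (41 and 43), without BioB 74 (39 and 35), array weights 465 (173 lower), an adjusted p under 0.01 117 (98 and 19) and a 2-fold minimum 132 (110 and 22). Lower calls numbered 170 after quantile normalization, 134 after centring and 169 after centring without mock 4 h replicate 2. Leaving out 1 mock array gave 170 to 412 calls, 133 to 264 higher and 34 to 171 lower. The cause was not tested.

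Under spike-in scaling with BioB, whose construction adds 0.64 to each difference, 38 named genes changed sign. Of these, 12 were not called with or without the scaling, with values of 0.16 to 0.48 under it. The other 26 were called with the scaling, without it, or in both cases: TIC 0.60, LBD37 0.13, IAA16 0.15, CGA1 0.14, RGL2 0.09, GA3OX2 0.11, ABF3 0.11, HB-12 0.15, HSFB2A 0.00, TSO2 0.09, CYCA3;1 0.14, MCM3 0.12, ORC2 0.11, GRF6 0.08, EXPA4 0.07, PSBO2 0.18, LHCB4.2 0.25, GAPB 0.33, LHCB4.3 0.21, HEMA1 0.16, GUN4 0.08, CUC3 0.29, TRY 0.11, ZFP8 0.10, GA20OX3 0.63 and CRK12 0.63. Of 123 named calls 27 were lost without some single mock array. Mock arrays of the same replicate number did not deviate together between the times (r 0.072, 0.007 and 0.011). Over all 4 groups r for arrays of 1 number ranged from -0.098 to 0.193. Not every such pair exceeded 0.1, the rule used here, so the main fit did not pair the samples. With 3 arrays a group this cannot show that they are unpaired, and the labels do not say what equal numbers mean. Mock and DEX arrays of 1 number correlated at 0.039, 0.059 and 0.193 at 1 h and at -0.012, 0.187 and 0.102 at 4 h. The block gave 267 calls (201 and 66) for the difference between DEX and mock. For mock 4 h against 1 h with a replicate block, 1907 loci were called (767 and 1140), 1762 of them calls of the fit without it. Precision is limited by 3 arrays a group. The promoter motifs were not run.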

Other observations

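Loci encoded in the mitochondrial genome, a group picked after its values were seen, had 14 rises and 0 falls among 77 in mock leaves by limma, where 3.64% of all loci rose, with a median difference of 0.02. Without mock 4 h replicate 2 they had 15 rises, and in DEX 20 rises and 2 falls. Of 3 plastid-encoded loci 1 rose in mock, 3 without mock 4 h replicate 2, and 3 in DEX. 0 of these loci count as standing for exactly 1 gene in the reference used, and the widened gap between 3′ and 5′ control signals at 4 h moved with them; its part was not tested.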
